A study of Mus musculus with 6 samples.

Results

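Amino acid transporters were examined in WT and Oct6 KO EpiLCs, the formative cells obtained by differentiating naïve mESCs. The members were the protein-coding genes of the SLC1, SLC6, SLC7, SLC36, SLC38 and SLC43 families together with Slc3a1 and Slc3a2, provided that a count was present in at least 1 library. This rule gave 58 genes of the 30691 with a count, while Slc6a18, Slc7a12 and Slc7a13 match it but had no count. RNA-seq was performed on 3 libraries from WT cells, the parental 46C line, whose GFP is driven by the neural gene Sox1, and 3 libraries from KO cells, a single clone of that line with a homozygous insertion of 1 nucleotide next to the initiation codon of Oct6 (official symbol Pou3f1). Both lines had grown in 2i and LIF and were then differentiated for 48 h on fibronectin in N2B27, a defined medium, with 1% KSR (a serum replacement), bFGF and Activin A. The replicates were biological and paired, but those of the KO share 1 clone, so that a difference between genotypes and one between the clone and its parental line cannot be told apart. The comparison asks which transporters differ in expression between EpiLCs with and without Oct6.

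Amino acids enter and leave cells, and cross the lysosomal membrane, through carriers of several families that differ in substrate and in the ion they use. The SLC7 light chains LAT and xCT reach the cell surface only when bound to the heavy chain encoded by Slc3a2 (4F2hc, CD98), and exchange one amino acid for another. The SLC38 carriers take up glutamine and small neutral amino acids with sodium, the SLC1 carriers take up glutamate or neutral amino acids, and the SLC6 family holds sodium and chloride dependent carriers that include, besides those of amino acids, carriers of taurine, creatine and monoamines. When amino acids are scarce, translation of the transcription factor ATF4 rises, and ATF4 activates several of these carriers together with enzymes of amino acid synthesis through DNA elements bound by its dimers.

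Library totals ran from 10995505 to 14680930 counts over the genes of the table. Values by library follow the order of replicates 1, 2 and 3. Levels are given in CPM, read counts scaled to the TMM-normalized library size, and levels of different genes are compared only in CPM per kb of exon. Exon length is the union of all annotated exons of a gene. It can exceed the length of the transcript expressed, so that ranks and shares per kb are approximate. Differences are log2 fold changes of KO over WT with their standard errors (SE), and a gene was called at an adjusted p below 0.1 by the quasi-likelihood test of edgeR (Benjamini-Hochberg over 15746 genes). Across all these genes the median log2 fold change was 0.00, that of the 773 genes on chromosome 6 was −0.40 and that of the 471 genes on chromosome 16 was 0.55, and members with values on these chromosomes are marked where they are described. For Pou3f1, the WT libraries had 2156, 1563 and 1805 counts, whereas the KO libraries had 1567, 1825 and 1708 (log2 fold change −0.10, SE 0.11, adjusted p = 0.574). An insertion of this size need not lower the count of the transcript, so these counts do not check the labels.

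Of the 58 members, 35 passed the filter on low counts. In KO cells 4 members, among them Slc38a4, Slc1a1 and Slc6a8, were called higher, which is 11.4% of the members tested, where 11.8% of all genes tested were called higher. Slc7a11, Slc6a9, Slc6a15, Slc6a6, Slc7a6, Slc38a1 and Slc7a5 were called lower, which is 20% of the members tested, beside 12.5% of all genes tested. The other 24 members tested had log2 fold changes between −0.26 and 0.41, and the median of the 35 was 0.01. Where the log2 fold change also had to reach 1 in either direction, 3 members, among them Slc38a4 and Slc1a1, remained higher, beside 2.92% of all genes tested, and 2 lower (Slc7a11 and Slc6a9), beside 3.3% of all genes tested. In each of the 11 members called, the 3 KO libraries lay on one side of the 3 WT libraries with no overlap. With so few libraries this largely goes with the call itself, and its share over all genes was not computed. The groups of Slc1a3, Slc38a10, Slc7a7, Slc43a1 and Slc3a2 did not overlap either, and these members were not called. These libraries are bulk samples, in which fewer cells of a type and less RNA per cell cannot be told apart.

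**Figure D1:**
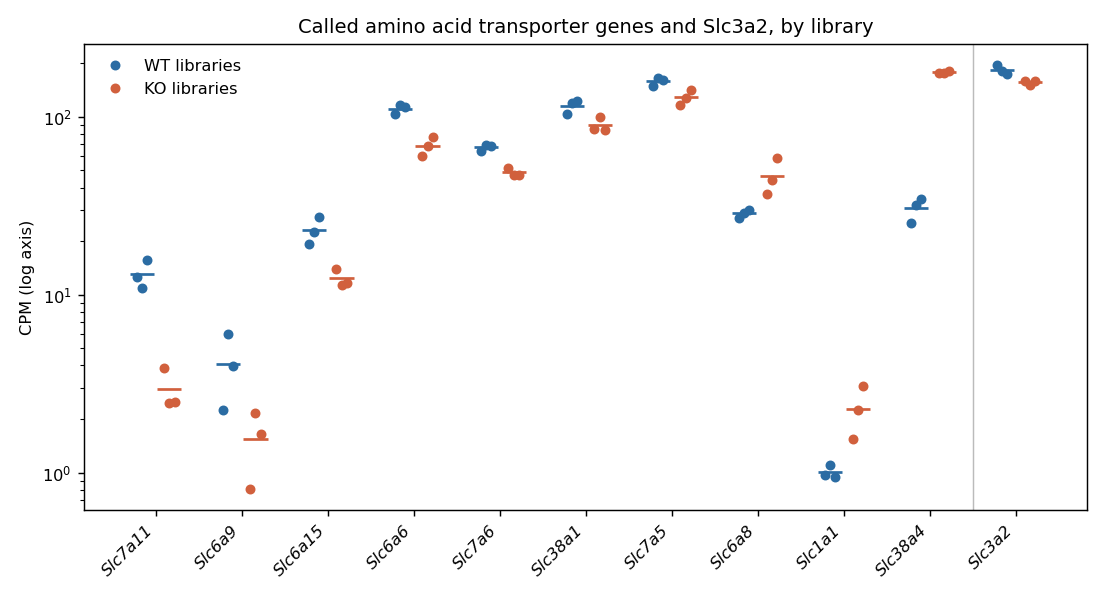
CPM on a log axis of 10 of the 11 members called, ordered by fold change, and of Slc3a2 at the right, with 1 point for each library (WT and KO replicates 1 to 3 from left to right) and a line at the mean of each group. Slc7a11 stood at the left with WT libraries between 10.9 and 15.6 and KO libraries between 2.47 and 3.89, and Slc38a4 had WT libraries between 25.2 and 34.7 and KO libraries between 176 and 180.0.

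Slc7a11, which encodes the light chain xCT that imports cystine in exchange for glutamate, showed the largest decrease among the 35 members tested. The gene lies on chromosome 3 from 49846975 to 50398070 on the minus strand (GRCm39). Its WT libraries had 12.5, 10.9 and 15.6 CPM, whereas its KO libraries had 3.89, 2.47 and 2.48 CPM. The highest KO library was therefore below the lowest WT library in a gene that is not abundant, with 630 counts over the 6 libraries. The mean fell from 13.0 ± 2.43 to 2.95 ± 0.816 CPM (SD, n = 3 per group), a log2 fold change of −2.15 (SE 0.23, adjusted p = 3.36e-06), so that WT cells held 4.43 times the KO level. The 33 other genes tested within 5 Mb of Slc7a11 had a median log2 fold change of −0.46.

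The RefSeq promoter window of Slc7a11, 250 bases before to 50 bases after the transcript start, is shown because it is the window of a called member that holds the letters searched for as the amino acid response element (TGATGNAA, on either strand). The window was found once in GRCm39, at chr3:50398013-50398312 on the minus strand. Windows of Slc7a7 and Slc1a4, the other members tested that hold these letters, are set beside it. Slc7a7 has several windows, some without the element, and the one with the most matches is printed. Capitals mark matches to this element or to the octamer bound by POU factors (ATGCAAAT, on either strand), and the sequences run 5′ to 3′ on the strand of the gene.
Slc7a11: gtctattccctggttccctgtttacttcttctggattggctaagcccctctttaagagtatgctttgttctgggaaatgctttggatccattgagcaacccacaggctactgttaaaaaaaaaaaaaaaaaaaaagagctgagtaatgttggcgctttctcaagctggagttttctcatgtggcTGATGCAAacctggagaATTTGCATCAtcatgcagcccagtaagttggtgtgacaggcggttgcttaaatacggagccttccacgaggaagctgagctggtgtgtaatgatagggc
Slc7a7: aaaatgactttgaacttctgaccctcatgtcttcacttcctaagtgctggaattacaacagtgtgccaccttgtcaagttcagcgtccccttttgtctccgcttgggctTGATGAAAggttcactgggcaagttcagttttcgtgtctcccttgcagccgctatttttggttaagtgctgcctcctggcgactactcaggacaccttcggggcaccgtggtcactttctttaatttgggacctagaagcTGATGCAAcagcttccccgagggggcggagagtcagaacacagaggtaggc
Slc1a4: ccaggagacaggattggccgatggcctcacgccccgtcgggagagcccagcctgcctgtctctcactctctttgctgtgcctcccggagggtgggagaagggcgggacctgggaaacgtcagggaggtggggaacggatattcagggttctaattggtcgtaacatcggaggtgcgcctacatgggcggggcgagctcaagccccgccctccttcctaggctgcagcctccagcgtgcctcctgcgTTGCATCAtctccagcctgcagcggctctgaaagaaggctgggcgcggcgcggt

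Positions are counted from 1 at the transcript start, with −1 for the base before it. The Slc7a11 window holds the amino acid response element as TGATGCAA from −66 to −59 and, on the other strand, as TTGCATCA from −47 to −40. An octamer on the other strand, ATTTGCAT from −49 to −42, shares 6 bases with the second of these. Of the 32851 windows of all genes, 3.97% hold the element, 1.74% the octamer, 0.174% both and 0.0700% at least 2 elements. The Slc7a7 window at chr14:54655352-54655651 holds the element from −141 to −134 and from −1 to 7, and the Slc1a4 window at chr11:20282664-20282963 holds it on the other strand from −4 to 4. Counted from another Slc7a7 start, the second of the Slc7a7 matches lies from −243 to −236. Neither Slc7a7 (log2 fold change −0.10, SE 0.09) nor Slc1a4 (−0.18, SE 0.13) was called, with adjusted p = 0.491 and adjusted p = 0.373. The letters searched for as the antioxidant response element (TGACNNNGC, either strand), held by 12.4% of all windows, were found in windows of Slc6a9 and Slc7a6 among the members called, and not in that of Slc7a11. Windows were matched for 43 of the 58 members and for 5 of the 11 called (Slc1a1, Slc38a4, Slc6a9, Slc7a11 and Slc7a6). The 3 windows of Slc38a4 hold none of these letters. A match of letters is a description of the sequence and does not show that a factor binds there.

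Beside xCT, light chains of the LAT type and their heavy chain were among the most abundant members. Of the 6 heteromeric members tested, Slc7a11, Slc7a6 and Slc7a5 were called lower and none was called higher. Of all genes tested, 12.5% were called lower and 11.8% higher. Slc7a5 encodes LAT1, which imports leucine and other large neutral amino acids, and lies on chromosome 8 from 122607884 to 122634433. Its level was 149, 165 and 160.0 CPM in the WT libraries, against 116, 128 and 141 CPM in the KO libraries. The groups did not overlap, but the decrease was modest, with a log2 fold change of −0.30 (SE 0.10, adjusted p = 0.0419), and the call was lost without WT replicate 2 (adjusted p = 0.104), without KO replicate 1 (0.202) or without KO replicate 2 (0.111). Slc7a6, which encodes the light chain y+LAT2 that exchanges cationic for neutral amino acids, fell from 67.3 ± 2.42 to 48.7 ± 2.58 CPM (log2 fold change −0.47, SE 0.10, adjusted p = 0.00292). Slc7a7, its close relative y+LAT1, stood at 196 ± 6.73 and 183 ± 1.74 CPM and was not called.

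Slc3a2, the heavy chain, lies on chromosome 19 from 8684245 to 8701108 and stood at 195, 181 and 173 CPM in the WT libraries, compared with 158, 151 and 159 CPM in the KO libraries. All KO libraries were below all WT libraries, and the log2 fold change of −0.23 (SE 0.09) did not pass the threshold (adjusted p = 0.103). With the replicate number as a block it did (adjusted p = 0.0527), as it did without WT replicate 3 (adjusted p = 0.074). Leaving out any other library, it did not (adjusted p from 0.127 to 0.301). Of its exon bases, 743 overlap those of Snhg1 on the opposite strand, a non-coding gene with 11147 counts beside 13185 for Slc3a2 and a log2 fold change of 0.15 (SE 0.10, adjusted p = 0.341). Whether counting used the strand is not given in the sources used here. Set against the sum of its light chains Slc7a5, Slc7a6, Slc7a7, Slc7a8, Slc7a10 and Slc7a11, in CPM per kb, Slc3a2 had a ratio of 0.464 ± 0.0405 in WT and 0.470 ± 0.0214 in KO cells (SD, n = 3 per group). This ratio differed by 0.024 on the log2 scale (two-sided exact permutation test over 20 splits, p = 0.6, where the smallest possible p is 0.1), and its sign turned when WT replicate 2, WT replicate 3 or KO replicate 1 was left out. Of the light-chain sum, Slc7a5 made up 48.5 ± 1.20% in WT and 46.8 ± 2.47% in KO cells, and Slc7a7 38.2 ± 1.38% and 42.3 ± 1.45%. Slc7a6 made up 12.2 ± 0.225% and 10.5 ± 0.986%, while Slc7a11 made up 0.990 ± 0.198% and 0.269 ± 0.0853%, so that xCT was a minor light chain in both genotypes. Slc7a8, the light chain LAT2, was near the limit of detection, with 0.552 ± 0.249 CPM in WT and 0.725 ± 0.232 CPM in KO cells.

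The remaining SLC7 members are the cationic amino acid transporters, which work without a heavy chain, and their relatives. None of the 4 tested was called. Slc7a3, an importer of arginine and lysine, was the second most abundant member per kb and had 200.0 ± 9.64 CPM in WT and 196 ± 5.29 CPM in KO cells, with a log2 fold change of −0.03 (SE 0.09). Slc7a1, the widely expressed importer of the same substrates, had 40.9 ± 2.50 and 37.7 ± 3.89 CPM. Slc7a2 and Slc7a4 were low, at 2.07 ± 0.447 and 1.98 ± 0.171 CPM in WT cells, and Slc7a4, on chromosome 16, had a log2 fold change of −0.21 (−0.76 with the chromosome medians removed, adjusted p = 0.164) and shares 2617 exon bases with P2rx6 on the opposite strand.

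Slc38a4 rose more than any other member tested. It encodes SNAT4, a sodium-coupled carrier of neutral amino acids, and is imprinted in the mouse, with expression from the paternal allele in placenta and embryo. The gene lies on chromosome 15 from 96892693 to 96958593 on the minus strand. The WT libraries had 25.2, 32.0 and 34.7 CPM, against 176, 177 and 180.0 CPM in the KO libraries. The KO libraries lay close together and far above the WT libraries, and the mean rose from 30.6 ± 4.93 to 178 ± 2.05 CPM, a 5.79-fold increase (log2 fold change 2.53, SE 0.12, adjusted p = 1.35e-10). Under every alternative run the log2 fold change stayed between 2.41 and 2.64.

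Slc38a4 lies in a row with 2 relatives that did not follow it. Slc38a1 (SNAT1), which brings in glutamine, fell from 115 ± 10.4 to 89.6 ± 8.23 CPM (log2 fold change −0.37, SE 0.10, adjusted p = 0.018). Slc38a2 (SNAT2), a carrier of small neutral amino acids that is induced on amino acid starvation, stood at 610.0 ± 45.4 CPM in WT and 685 ± 64.9 CPM in KO cells and was not called (log2 fold change 0.17, SE 0.10, adjusted p = 0.281). The gap between Slc38a1 and Slc38a2 is 43.4 kb, and that between Slc38a2 and Slc38a4 294.8 kb. On the other side, Gm32885, a long non-coding RNA gene of the same strand that starts 107.4 kb before the Slc38a4 start, rose from 19.6 to 45.9 CPM (log2 fold change 1.23, SE 0.14, adjusted p = 7.62e-06). Beyond Slc38a1, Arid2 (−0.34, SE 0.10, adjusted p = 0.0227), D030018L15Rik (−1.74, SE 0.52, adjusted p = 0.0244) and 2610037D02Rik (−0.45, SE 0.16, adjusted p = 0.0507) were called lower, whereas Scaf11 was not called. Beyond Gm32885, Amigo2 fell (−0.82, SE 0.30, adjusted p = 0.0612) and Pced1b was not called (−0.31, SE 0.18, adjusted p = 0.272). The 97 genes tested within 5 Mb of Slc38a4 had a median log2 fold change of −0.19. The genes around Slc38a4 were named after their values were seen.

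**Figure D2:**
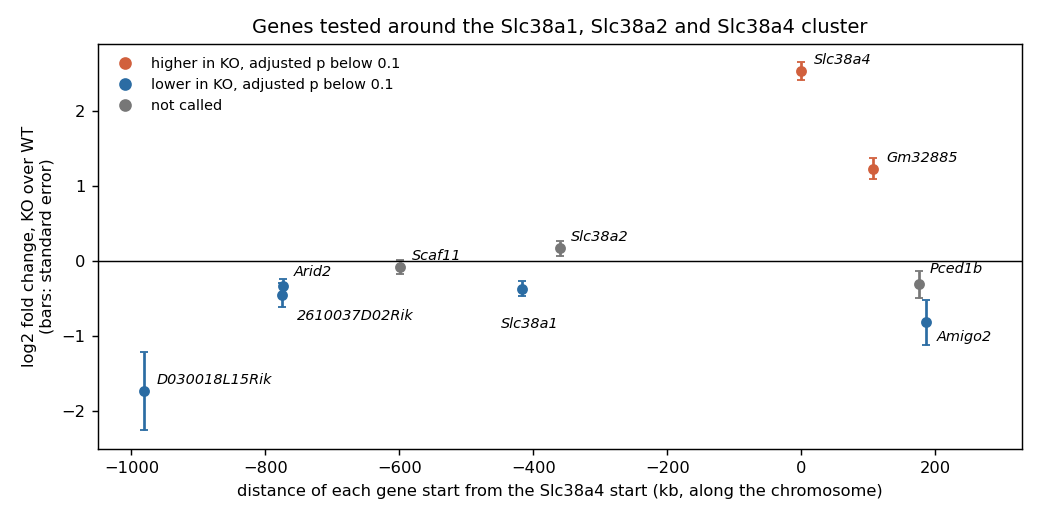
Log2 fold change of KO over WT (bars, SE) of the genes tested around Slc38a4, against the distance of their starts from the Slc38a4 start in kb along the chromosome. Slc38a4 (2.53) and Gm32885 (1.23) were the genes called higher, while Slc38a1 (−0.37) was called lower and Slc38a2 (0.17) was not called.

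The 5 other SLC38 members tested showed no call. Slc38a10, with 86.0 ± 6.81 and 96.9 ± 2.15 CPM, had a log2 fold change of 0.17 (SE 0.10, adjusted p = 0.258). Slc38a9, a lysosomal carrier that senses arginine for mTORC1, had 17.7 ± 2.04 and 20.3 ± 1.86 CPM, and Slc38a7 had 17.0 ± 3.35 and 14.1 ± 0.73 CPM. In CPM per kb, Slc38a4 made up 5.48 ± 1.05% of the SLC38 sum in WT cells and 23.5 ± 1.32% in KO cells, while Slc38a2 made up 69.1 ± 2.37% and 57.7 ± 2.51%. The SLC38 sum was 91.0 ± 3.81 CPM per kb in WT and 122 ± 6.20 in KO cells.

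Among the SLC6 carriers, 8 of 18 members were tested, of which Slc6a9, Slc6a15 and Slc6a6 were called lower and Slc6a8 was among those called higher. The shares over all genes tested were 12.5% lower and 11.8% higher. Slc6a9 encodes the glycine transporter GlyT1 and lies on chromosome 4 from 117691703 to 117732395. The WT libraries had 2.24, 6.02 and 3.99 CPM, while the KO libraries had 0.810, 2.16 and 1.65 CPM. The groups were apart by a narrow margin and both varied widely, with a log2 fold change of −1.38 (SE 0.38, adjusted p = 0.0153) that rested on WT replicate 2, without which it was −1.02 (adjusted p = 0.107). Of its exon bases, 551 overlap those of B4galt2 on the opposite strand, which had 1241 counts beside 215 for Slc6a9 and was lower too (log2 fold change −0.54, SE 0.16, adjusted p = 0.0253). Without knowledge of the strand setting, reads of these 2 genes cannot be told apart in the shared part.

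Slc6a15, a carrier of branched-chain amino acids and proline, fell from 23.0 ± 4.04 to 12.4 ± 1.44 CPM (log2 fold change −0.90, SE 0.16, adjusted p = 0.000523). Slc6a6, the taurine transporter, fell from 111 ± 7.17 to 68.4 ± 8.26 CPM (log2 fold change −0.70, SE 0.11, adjusted p = 0.000126). Slc6a6 lies on chromosome 6, where the 69 genes tested within 5 Mb had a median log2 fold change of −0.54, and with the chromosome medians removed its own was −0.30 (adjusted p = 0.0652). Slc6a8, the creatine transporter, is on chromosome X and rose from 28.7 ± 1.60 to 46.7 ± 11.3 CPM (log2 fold change 0.70, SE 0.14, adjusted p = 0.0018). Its KO libraries, at 36.9, 44.1 and 59.0 CPM, were spread more widely than its WT libraries, at 26.9, 28.9 and 30.1 CPM. Slc6a5, Slc6a13 and Slc6a16, tested and not called, had group means between 0.775 and 1.67 CPM. Of these, Slc6a13 lies on chromosome 6, and its log2 fold change was 0.08, or 0.48 once the chromosome medians were removed (adjusted p = 0.546).

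The SLC1 family had 1 call, higher in KO cells, among 4 members tested, where 11.8% of all genes tested were called higher. Slc1a1, which encodes the glutamate and cysteine transporter EAAC1 and lies on chromosome 19 from 28812449 to 28891360, had WT libraries at 0.970, 1.10 and 0.947 CPM, whereas its KO libraries were at 1.54, 2.24 and 3.08 CPM. The lowest KO library was above the highest WT library, at a depth of 12 to 41 counts per library. The log2 fold change was 1.19 (SE 0.38, adjusted p = 0.0327), and without KO replicate 3 it was 0.91 and not called (adjusted p = 0.191). The carriers of neutral amino acids Slc1a4 (ASCT1) and Slc1a5 (ASCT2) had 34.7 ± 1.37 and 24.2 ± 2.92 CPM in WT cells and 30.6 ± 4.90 and 22.7 ± 3.15 CPM in KO cells. Slc1a3, a glutamate transporter also found in glia, had 39.3 ± 0.318 and 44.6 ± 1.11 CPM with a log2 fold change of 0.18 (SE 0.11, adjusted p = 0.267).

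No member of the SLC36 family of proton-coupled carriers or of the SLC43 family was called. The SLC36 members tested were Slc36a1, with a log2 fold change of −0.13 (SE 0.27), and Slc36a4, with 0.18 (SE 0.19). Slc43a1, a carrier of large neutral amino acids, had WT libraries at 15.7, 15.1 and 15.9 CPM, whereas its KO libraries were at 24.2, 19.5 and 16.2 CPM, with no overlap (log2 fold change 0.36, SE 0.16, adjusted p = 0.13). With the replicate block it passed the threshold (adjusted p = 0.0779). Slc43a2 and Slc43a3, the latter a carrier of purine nucleobases, had log2 fold changes of −0.11 (SE 0.16) and 0.28 (SE 0.19).

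**Figure D3:**
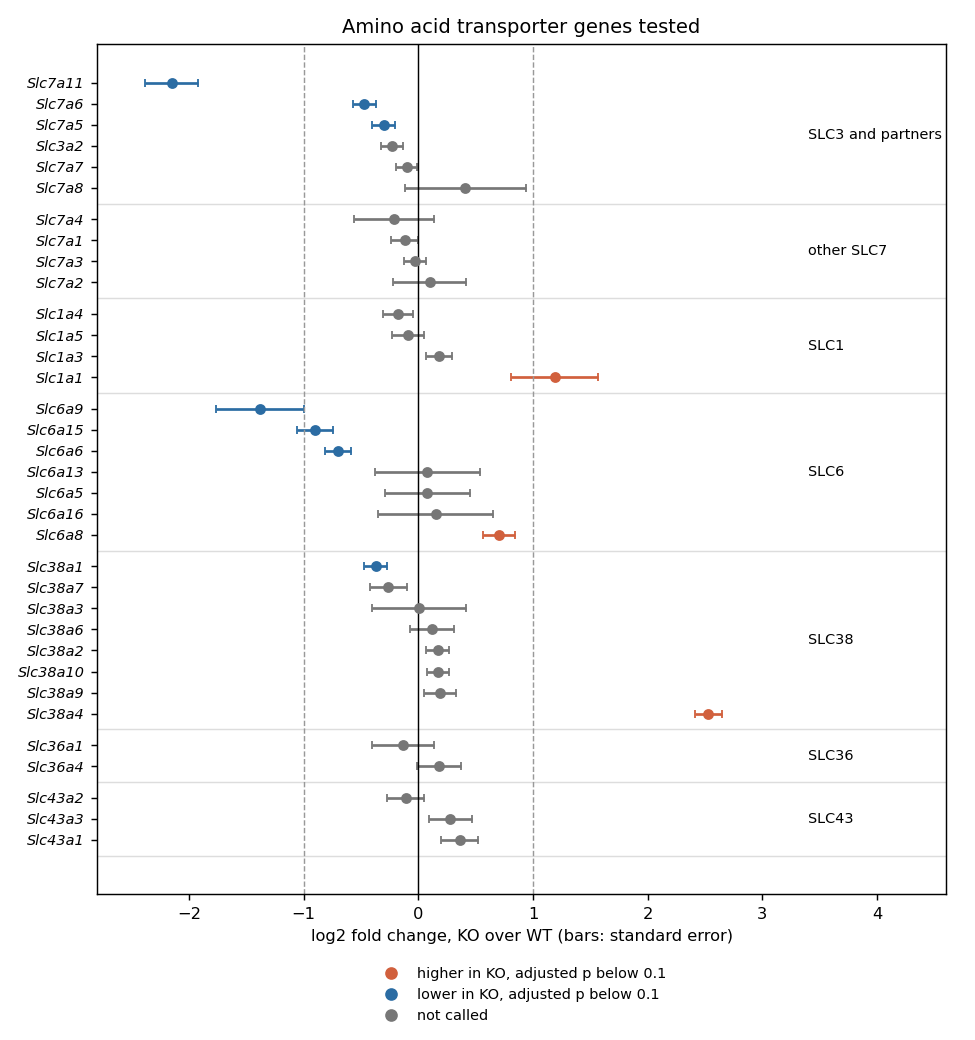
Log2 fold change of KO over WT (bars, SE) of 34 of the 35 members tested, grouped by family and colored by call, with dashed lines at −1 and 1. The values run from −2.15 for Slc7a11 to 2.53 for Slc38a4, and those of the 24 members not called lie between −0.26 and 0.41.

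The other 23 members were not tested because their counts were too low. They were Slc3a1, Slc7a9 and Slc7a10 among the heteromeric transporters, Slc7a14 and Slc7a15, Slc1a2, Slc1a6 and Slc1a7, Slc36a2 and Slc36a3, Slc38a5, Slc38a8 and Slc38a11, and in the SLC6 family Slc6a2, Slc6a3, Slc6a4, Slc6a7, Slc6a11, Slc6a12, Slc6a14, Slc6a17, Slc6a19 and Slc6a21. Their counts summed over the 6 libraries ran from 2 to 53 with a median of 11, and 9 of them had at most 3 counts in every library. The carriers of noradrenaline (Slc6a2), dopamine (Slc6a3) and serotonin (Slc6a4) were among them. Members of this kind passed the filter in some fits with 1 library left out. Slc7a9, a light chain that pairs with Slc3a1, had 13, 9 and 8 counts in the WT libraries and 3, 1 and 6 in the KO libraries, and in such fits it was called lower without WT replicate 3 (log2 fold change −1.76, adjusted p = 0.0976) and without KO replicate 3 (−2.22, adjusted p = 0.0764), but not without KO replicate 1 (−1.51, adjusted p = 0.208) or KO replicate 2 (−1.12, adjusted p = 0.315). Slc6a7 had 4, 1 and 7 counts in the WT libraries and 9, 8 and 12 in the KO libraries, again without overlap. Of the 23, 3 had groups that did not overlap, and among these Slc6a3 had at most 1 count in every library. Slc7a9, Slc6a7 and Slc6a3 were singled out after their values were seen. With all 6 libraries and no filter none of the 23 was called.

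Compared per kb of exon, 5 members held most of the transporter RNA. Slc38a2 led with 62.9 ± 4.69 CPM per kb in WT and 70.7 ± 6.69 in KO cells. In WT cells it was followed by Slc7a3 (41.2 ± 1.99), Slc7a5 (41.1 ± 2.23), Slc3a2 (39.2 ± 2.45) and Slc7a7 (32.4 ± 1.11), and the first 3 of these did not differ beyond their spread. These 5 made up 71.5 ± 1.12% of the sum over the members in WT cells and 66.5 ± 0.55% in KO cells. Slc38a10 came next in WT cells at 12.3 ± 0.972 CPM per kb, well below them. Slc38a4 moved from rank 12 at 4.96 ± 0.798 CPM per kb in WT to rank 6 at 28.7 ± 0.332 in KO cells, just below Slc7a7 at 30.1 ± 0.286. Slc7a11, by contrast, was low on this scale in both groups, at 0.836 and 0.190 CPM per kb. The heteromeric members together went from 124 ± 2.57 to 105 ± 3.52 CPM per kb, and all members from 303 ± 3.86 to 313 ± 6.24. The total thus differed little, while the share of Slc38a4 in it was 1.64 ± 0.281% in WT and 9.19 ± 0.159% in KO cells.

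**Figure D4:**
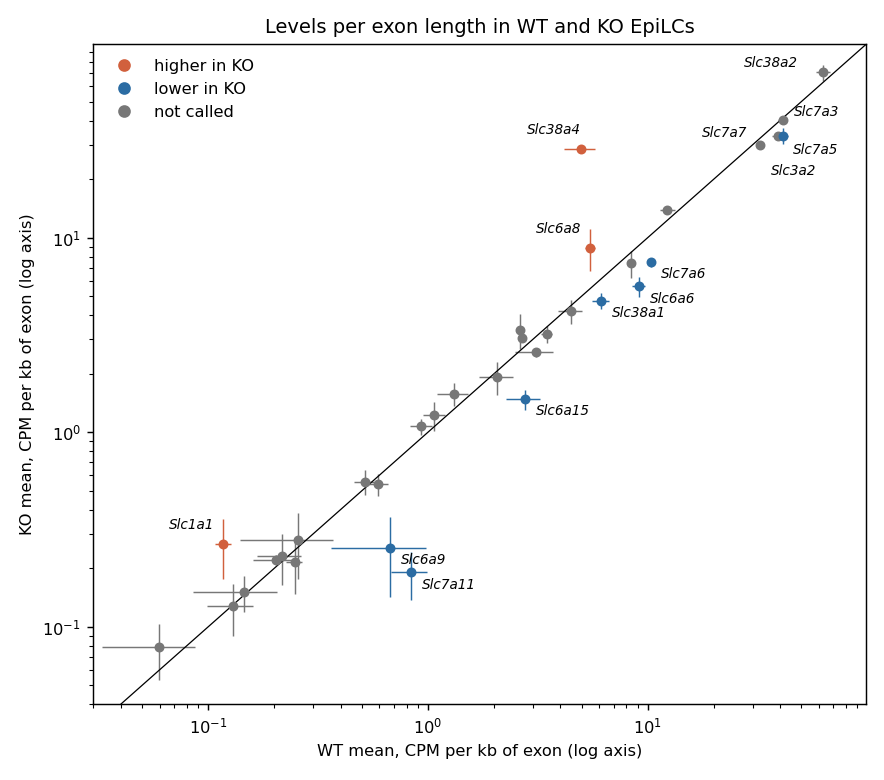
Mean level of 34 of the 35 members tested in WT (horizontal) and KO cells (vertical), in CPM per kb of exon on log axes, with bars of 1 SD over 3 libraries and a line where both are equal. Slc38a4 lies farthest above the line (4.96 and 28.7) and Slc7a11 farthest below it (0.836 and 0.190), and the 5 most abundant members in WT cells lie near it.

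Genes of the response to scarce amino acids, other than the transporters, were lower in KO cells in most cases. Of 23 such genes, all tested, 14 (60.9%) were called lower and 1 (4.35%) higher, beside 12.5% and 11.8% of all genes tested. Their median log2 fold change was −0.58, beside 0.00 for all genes tested. The list was chosen with earlier results of these data known, so these shares describe it and are not a test. Atf4, which encodes the transcription factor of this response, stood at 263, 299 and 243 CPM in the WT libraries, compared with 137, 119 and 110.0 CPM in the KO libraries (log2 fold change −1.14, SE 0.11, adjusted p = 9.71e-07). Chac1, which degrades glutathione, had a log2 fold change of −1.42 (SE 0.28, adjusted p = 0.00114). Trib3, a pseudokinase that restrains ATF4, had −0.86 (SE 0.15, adjusted p = 0.000386), and Psat1, an enzyme of serine synthesis, −0.58 (SE 0.11, adjusted p = 0.00124). Asns, the asparagine synthetase, had −0.72 (adjusted p = 4.09e-05) and Mthfd2, an enzyme of mitochondrial folate metabolism, −1.03 (adjusted p = 4.06e-06), but both lie on chromosome 6, and with its median removed they had −0.32 (adjusted p = 0.0291) and −0.63 (adjusted p = 0.000644). Sesn2, which inhibits mTORC1 when leucine is low, was the gene called higher (0.31, SE 0.11, adjusted p = 0.0658). Ddit3, a partner of ATF4, was not called (0.05, SE 0.32, adjusted p = 0.942).

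**Figure D5:**
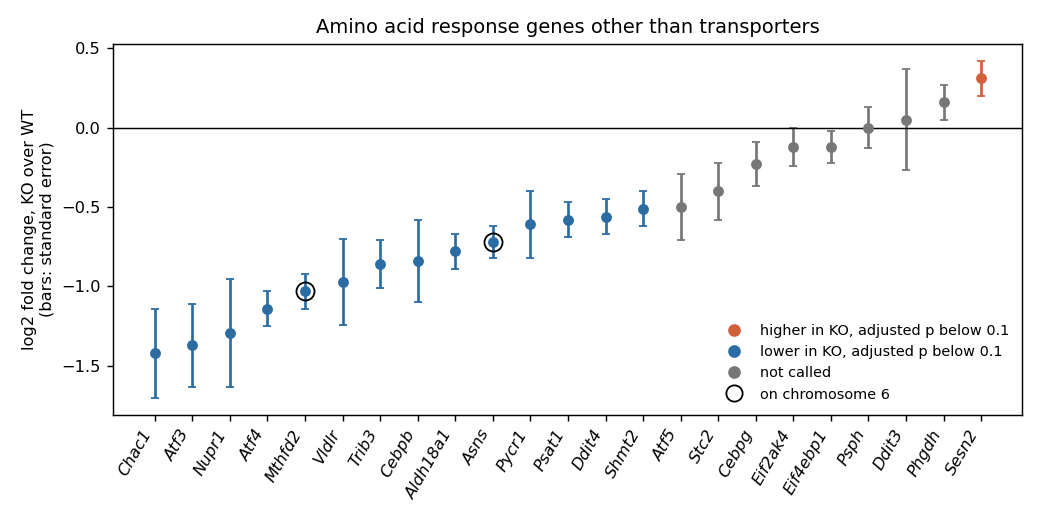
Log2 fold change of KO over WT (bars, SE) of the 23 amino acid response genes that are not transporters, in order of size, with rings around those on chromosome 6. The points of 14 genes called lower run from Chac1 (−1.42) upward, and Sesn2 (0.31) is the gene called higher.

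A list of 28 genes of amino acid sensing by mTORC1 also held subunits of mTORC1 and its targets Tfeb and Tfe3. Of these 28, 5 were called higher (Sesn1, Sesn2, Rragc, Lamtor4 and Mlst8) and 1 lower (Tfe3), with a median log2 fold change of 0.09. These are 17.9% and 3.57% of the list, beside 11.8% and 12.5% of all genes tested. Mlst8, a subunit of mTORC1, had the largest of these differences (0.79, SE 0.15, adjusted p = 0.000755). Of 21 other amino acid carriers, among them mitochondrial and vesicular ones, 14 were tested, 2 were called higher (Slc25a12 and Slc15a2) and 2 lower (Slc16a10 and Slc25a13), each 14.3% of those tested and near the 11.8% and 12.5% of all genes tested. Slc16a10, which carries aromatic amino acids, had a log2 fold change of −0.69 (SE 0.17, adjusted p = 0.0069). Slc15a2 and Slc25a13 lie on chromosomes 16 and 6, and neither was called with the chromosome medians removed. Among 7 genes of cysteine supply and of the synthesis and reduction of glutathione, Gss, the glutathione synthetase, was called higher (0.43, SE 0.11, adjusted p = 0.0114). Cth, which makes cysteine from cystathionine and not from imported cystine, was called lower (−0.50, SE 0.10, adjusted p = 0.00147). The others, among them the rate-limiting Gclc (−0.03, SE 0.10), were not called. The calls in each direction are 14.3% of these 7 genes, near the 11.8% and 12.5% of all genes tested.

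Markers of cell types moved with genotype too. The summed level of 6 EpiLC markers ran from 2604 to 2886 CPM in WT and from 2550 to 2690 CPM in KO libraries, with Sox2, Fgf5 and Otx2 called higher. That of 10 naïve markers ran from 295 to 321 and from 386 to 479 CPM, with 4 called higher (Nanog, Zfp42, Tcl1 and Fbxo15). Klf4, Klf5, Tbx3, Tfcp2l1, Nr0b1 and Dppa3 were not called, and Klf5 and Tbx3 had lower means in KO cells. The summed level of 5 neural markers ran from 41.2 to 45.5 and from 15.5 to 16.8 CPM, and the 2 tested, Sox1 and Nes, were called lower. Most of the neural sum was Nes, with means of 38.6 CPM in WT and 14.5 CPM in KO cells. Pax6, Neurog2 and Hes5 were too low to be tested. Of all genes tested, 11.8% were called higher and 12.5% lower. Of 7 primitive endoderm markers, with sums from 6.39 to 8.43 and from 6.56 to 18.6 CPM, 4 were tested and 2 called higher. Of 5 mesoderm markers, with sums from 6.02 to 6.57 and from 9.03 to 12.1 CPM, 1 was tested, Eomes, and called higher. Most of the mesoderm sum was Eomes, with means of 5.43 CPM in WT and 9.94 CPM in KO cells. T, Mixl1, Mesp1 and Tbx6 were too low to be tested. Of these, T and Mixl1 had lower and Mesp1 and Tbx6 higher means in KO cells. Sums of 5 trophoblast markers (3.65 to 6.12 and 3.56 to 5.57 CPM) and 5 fibroblast markers (8.85 to 17.8 and 6.32 to 11.6 CPM) overlapped between the groups, with no call among the 1 and 2 tested. No marker was at 0 in all libraries. The part of these differences in the levels of the transporters was not tested.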

How the data were processed

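RNA-seq libraries of total RNA (stranded kit, ribosomal RNA removed) were made from 3 WT and 3 Oct6 KO EpiLC cultures. After quality control (FastQC) and trimming (Fastp), the authors aligned the reads to GRCm39 (mm39) by two-pass STAR, and they ran DESeq2 for their own comparison. The deposited values are raw counts for 55416 genes, without normalization. The STAR version, the annotation, the use of the strand in counting and the treatment of multi-mapped reads are not given in the sources used here, and counts of overlapping genes are therefore uncertain. Of the identifiers, 54749 were matched to GENCODE M39 for symbols, positions and exon lengths and 667 were not.

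The counts were tested in R 4.3.3 with edgeR 4.0.16 (TMM, filterByExpr with a minimum count of 10, quasi-likelihood test, genotype as the only term, Benjamini-Hochberg adjustment over 15746 genes). SE were derived from the F statistic, and SD are over 3 libraries. The biological coefficient of variation was 11.7%. The code was tested on simulated data. Libraries of a group differed by more than sampling noise (chi-square per degree of freedom 6.94 to 11.8). The study's design describes the replicates as paired. Over 11448 genes, deviations from the group means had correlations of 0.276, 0.350 and 0.124 between libraries with the same number and −0.263 to −0.0226 between others. Because deviations are centered within each group, negative values between others follow from the positive ones and are not separate evidence of pairing. A replicate block was run as an alternative. The other alternatives were DESeq2 1.42.0, RLE size factors, library totals, 10 or more counts in every library, no filter, an adjusted p below 0.05, the medians of chromosomes 6 and 16 removed by an offset, and each library left out.

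By rule, values in every library are given for the members past both thresholds that are reported and for Slc7a11, Slc38a4, Slc7a5 and Slc3a2, statistics for the other members called, and up to 8 of the most abundant remaining members are named; Slc6a8, Slc43a1, some low members and list genes with values were added after their values were seen. The members, lists and motifs were chosen with earlier results of these data known. Promoter windows are from RefSeq (GRCm38.p6), and those printed were matched letter for letter to GRCm39. The values of 1 member called are not reported here.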

Additional observations from a re-analysis of the deposited data

How the results depend on the processing

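With 3 libraries per group and 1 KO clone, small differences and members under about 1 CPM are at the limit of this design. Members called higher numbered 4, and between 3 and 4 on leaving out 1 library. Members called lower numbered 7, and between 5 and 10. In those fits between 8.86% and 11.9% of all genes tested were called higher and between 9.71% and 11.5% lower. Members past both thresholds numbered 5, and between 3 and 5 on leaving out 1 library, with 3 without WT replicate 2. The share of all genes tested was 6.21%, and between 5.58% and 6.52% on leaving out 1 library. The replicate block added Slc43a1 to the members called higher (5) and Slc3a2 to those called lower (8) and changed no other call. It also raised calls over all genes tested, from 11.8% to 15% higher and from 12.5% to 15.3% lower. For Slc3a2 per summed light chains, a block by pairs leaves the difference of 0.024 as it is by construction, and the exact permutation of signs (p = 0.5) cannot go below 0.25. Slc3a2 was also called in DESeq2 (adjusted p = 0.0777), with library totals (0.0709) and with at least 10 counts in every library (0.0945). It was not called with RLE size factors (adjusted p = 0.104), no filter (0.169) or the chromosome medians removed (0.113). Slc3a2 per summed light chains was −0.011 without WT replicate 2, −0.013 without WT replicate 3 and −0.014 without KO replicate 1, and between −0.014 and 0.095 on leaving out 1 library. Slc1a5 turned from −0.09 to 0.01 without KO replicate 1, and ran from −0.18 to 0.01 on leaving out 1 library. Removing the medians of chromosomes 6 and 16, chosen for the lists after seeing the data, left 14 amino acid response genes called lower and 1 higher. It turned 5 genes of the mTORC1 list called higher into 6 and left 1 other carrier called in each direction. It also turned 4 naïve markers called higher into 5 (with Dppa3, on chromosome 6). Of 2 primitive endoderm markers called higher it left 1, as Pdgfra lost its call (adjusted p = 0.109). The causes were not tested.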
